A study of Mus musculus with 2 samples.

Results

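The histone cluster genes encode the linker histone H1 and the core histones H2A, H2B, H3 and H4, the proteins around which DNA is wound. The set was taken as every gene whose symbol starts with Hist1h, Hist2h, Hist3h or Hist4h, and it held 66 of the 43346 mouse genes in the deposited gene tables. Of these 66 genes, 6 encode H1, 20 H2A, 15 H2B, 12 H3 and 13 H4. They lie on chromosomes 13 (54 genes), 3 (9 genes), 11 (2 genes) and 6 (1 gene), and 2 of them, Hist1h2aj and Hist1h2al, are annotated as pseudogenes. Another 3 symbols of the same pattern, Hist1h2bh, Hist1h2bm and Hist2h2bb, had no gene identifier of their own in the tables and were not analysed here.

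The RNA came from adipose tissue, the animal being a C57BL/6J male at 10 weeks, with no treatment or allele named in the labels. It was sequenced as 2 technical libraries of polyadenylated RNA from 1 biosample, which form the only group. The labels place library 2 in 2015, after a publication of 2014 that did not include it, so library and date cannot be told apart. Depth was 19954869 expected counts in library 1 and 19256807 in library 2.

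Most histone cluster genes are replication-dependent: they are transcribed in S phase, have no introns, and give mRNAs that end just after a conserved stem-loop in place of a poly(A) tail. The stem-loop binding protein SLBP and a small nuclear ribonucleoprotein direct that cut. Some of these genes also give polyadenylated mRNAs, by reading past the stem-loop to a poly(A) signal or by splicing to a downstream exon, and such transcripts are known in cells that have left the cell cycle. A library made from polyadenylated RNA is therefore meant to sample the tailed transcripts, but tailed and untailed RNA were not measured separately here. Each value below is a level in bulk tissue, where fewer cells of a type and less RNA per cell cannot be told apart.

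The stem-loop is shown for the members with the highest levels and for members of other clusters, because it is the feature that separates the 2 kinds of transcript end. The sequences are GENCODE M21 transcript bases on mm10, read 5′ to 3′ on the strand of the gene, with the 16 bases of the stem-loop in capitals. The outer 6 bases on each side pair as a stem around a loop of 4 bases.
Hist2h2aa2 (chr3:96239784-96239799, minus strand): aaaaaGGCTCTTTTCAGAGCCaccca
Hist2h2aa1 (chr3:96246032-96246047, plus strand): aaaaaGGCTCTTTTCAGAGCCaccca
Hist1h1c (chr13:23739512-23739527, plus strand): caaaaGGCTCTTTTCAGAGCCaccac
Hist3h2a (chr11:58955172-58955187, plus strand): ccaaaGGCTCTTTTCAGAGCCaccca
Hist1h2be (chr13:23585531-23585546, minus strand): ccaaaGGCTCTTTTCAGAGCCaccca
Hist2h3c2 (chr3:96238485-96238500, minus strand): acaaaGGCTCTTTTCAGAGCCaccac
Hist1h4h (chr13:23531458-23531473, plus strand): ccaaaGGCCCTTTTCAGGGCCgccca
Hist1h4i (chr13:22040966-22040981, minus strand): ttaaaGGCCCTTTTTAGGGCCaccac
Hist2h4 (chr3:96262939-96262954, minus strand): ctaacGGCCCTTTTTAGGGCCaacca
Hist4h4 (chr6:136803998-136804013, minus strand): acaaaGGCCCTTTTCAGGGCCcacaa
Hist1h1t (chr13:23696525-23696540, plus strand): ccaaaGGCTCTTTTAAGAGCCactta

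The stem-loop was searched on the transcript strand, in the 100 transcript bases after the stop codon, as the fixed bases of the consensus (GG, then CTTTT, AG and CC) with the variable stem positions paired. It was found in 42 of the 66 members, 22 to 59 bases after the stop codon (median 32.5). Outside the set it was found in 2 of 21763 genes with an annotated stop codon (0.00919%), H2afx and H2bfm. H2afx encodes H2A.X, a histone known to be made from mRNAs of both kinds. Of the 24 members without a match, 18 had under 60 annotated bases after the stop codon or no annotated stop codon, so the search there was not complete. The other 6 were Hist1h2bc, Hist1h2bq, Hist1h2br, Hist2h2be, Hist1h3g and Hist1h4a, and the last 2 of these matched with 1 mismatch. Hist1h2bc is spliced 9 bases after the stop codon, and the transcripts of Hist1h2bq and Hist1h2br with several exons at the stop codon or before it. The unspliced bases after the stop codon of these genes were thus not searched in full.

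The set held 6 versions of the stem-loop, and they divided by histone type. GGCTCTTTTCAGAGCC was the version of 10 H2A, 6 H2B, 5 H3 and 3 H1 genes, and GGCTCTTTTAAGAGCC that of 2 H2B, 3 H3 and 1 H1 genes. H4 genes carried other versions, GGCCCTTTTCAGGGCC in 7 genes, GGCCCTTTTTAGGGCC in 2 and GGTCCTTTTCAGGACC in 2. No version of the H4 genes occurred in a gene of another type among those with a match.

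The 2 libraries differed in how many histone cluster genes they showed. At 1 TPM or more (TPM is a share of the transcripts of a library, corrected for length) there were 9 members in library 1, 18 in library 2 and 8 in both. Of all protein-coding genes, 58% were at that level in library 1, 67.2% in library 2 and 57.1% in both. The median TPM of the members was 0 in library 1 and 0.215 in library 2, against 2.09 and 6.01 for protein-coding genes. Listed at 0 counts were 51 members in library 1, 30 in library 2 and 29 in both. A count of 0 allows up to 3 counts, which for members at 0 is a floor of 0.270 to 1.37 TPM in library 1 and 0.137 to 1.69 TPM in library 2. A short transcript at or below 1 TPM could thus be missed in either library.

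**Figure D1:**
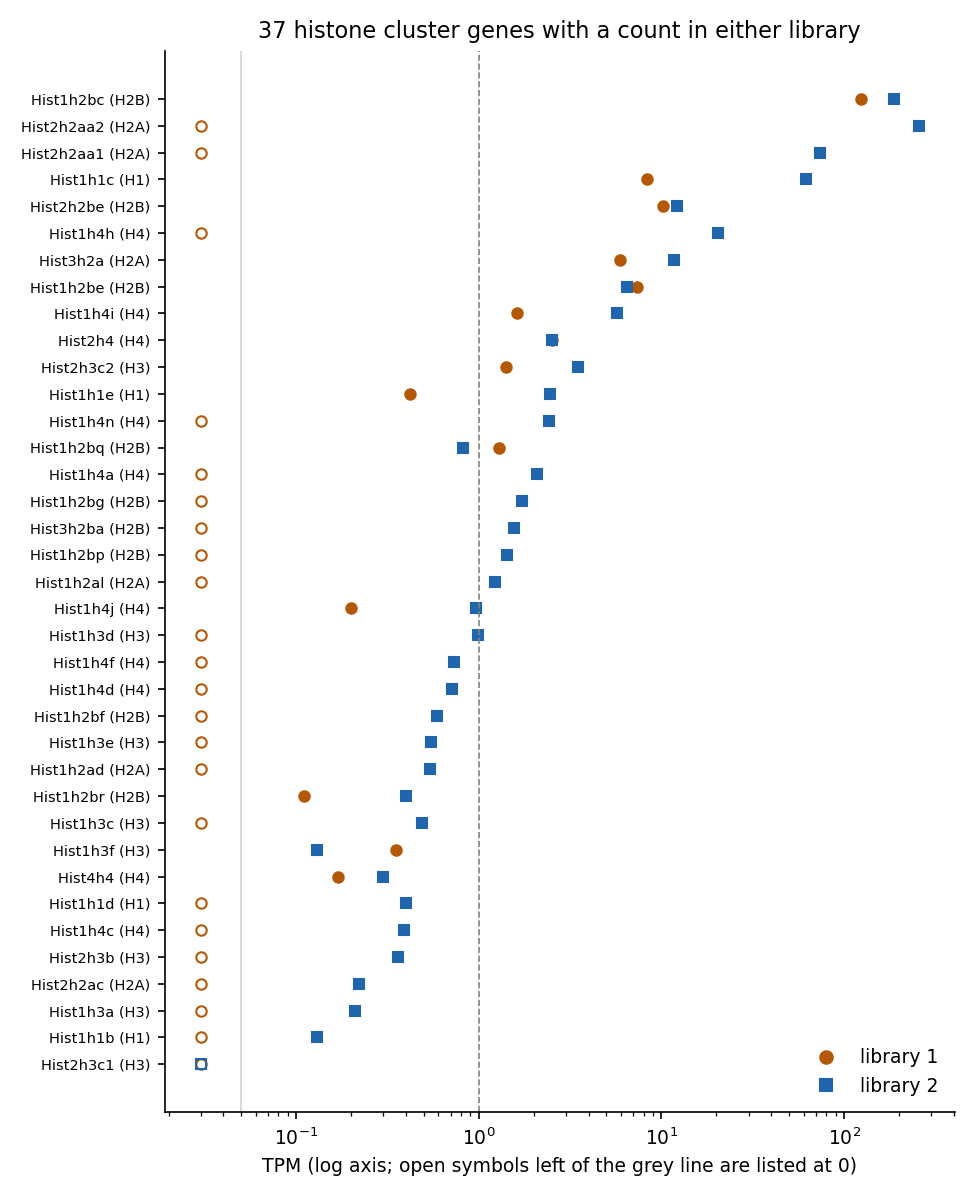
TPM (log axis) of the 37 members with any count, in library 1 (circles) and library 2 (squares), with the histone type in brackets; open symbols at the left are listed at 0 and the dashed line is 1 TPM. Hist1h2bc leads library 1 at 123 TPM, Hist2h2aa2 leads library 2 at 257 TPM and is at 0 in library 1, and most members lie under 1 TPM.

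A few genes held most of the signal. The members' TPM summed to 163 in library 1 and 664 in library 2, and their expected counts to 2392 and 5332. The 3 highest members took 86.9% of the summed TPM in library 1 and 78.0% in library 2. In library 1, 75.6% lay on Hist1h2bc alone, and in library 2 the highest member, Hist2h2aa2, held 38.7%. By cluster, the Hist1 genes of chromosome 13 summed to 143 and 301 TPM and the Hist2 genes of chromosome 3 to 14.2 and 349 TPM.

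By histone type, H2B genes summed to 142 TPM in library 1 and 213 in library 2. The H2A genes summed to 5.94 and 344 TPM, H1 genes to 8.72 and 64.5 TPM, H4 genes to 4.50 and 36.2 TPM, and H3 genes to 1.75 and 6.22 TPM. H2B was thus the leading type in library 1 and H2A in library 2. At 1 TPM or more were 4 H2B genes in library 1 and 6 in library 2, 1 and 4 H2A genes, 1 and 2 H1 genes, 2 and 5 H4 genes, and 1 H3 gene in each.

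**Figure D2:**
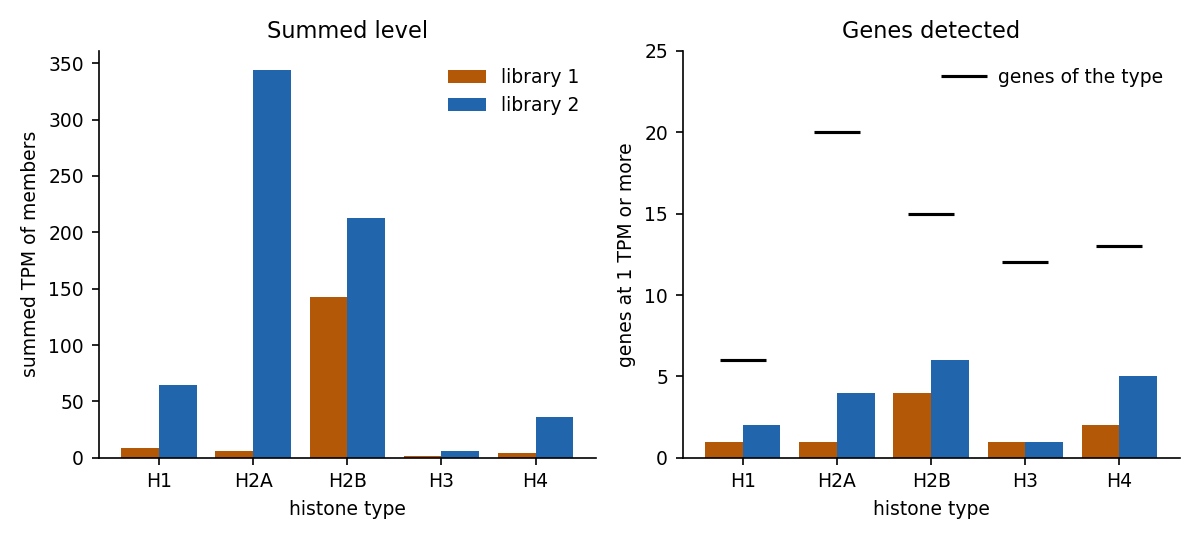
Summed TPM of the members of each histone type (left) and number of members at 1 TPM or more (right) in library 1 and library 2; black dashes mark how many genes the type holds. H2A stands at 5.94 TPM in library 1 and 344 in library 2, while H2B leads in library 1 at 142 TPM.

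Linker histone genes were represented by Hist1h1c, which encodes the linker histone H1.2. Hist1h1c (ENSMUSG00000036181, chr13:23738808-23740367, plus strand) had 195 counts (8.30 TPM) in library 1 and 1132.55 counts (61.50 TPM) in library 2. Its annotated transcript runs 840 bases past the stem-loop to the poly(A) signal shown in capitals, atgcttctAATAAAaagcgttt (chr13:23740342-23740347), 26 bases from its end. Hist1h1e, which encodes H1.4, had 4 counts (0.42 TPM) and 18.43 counts (2.44 TPM). Hist1h1t, the testis-specific linker histone of spermatocytes, was at 0 counts in both libraries. Its GENCODE M21 transcript of 912 bases also carries a stem-loop and a poly(A) signal. The authors' model, used for counting, has 729 bases, and whether it reaches that signal is not shown here.

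The highest H2A genes were a duplicated pair whose transcripts are the same over most of their length. Hist2h2aa2 (ENSMUSG00000063954, chr3:96239749-96240276, minus strand) was at 0 counts in library 1 and 1181.83 counts (256.60 TPM) in library 2. Hist2h2aa1 (ENSMUSG00000064220, chr3:96245497-96246082, plus strand) was at 0 counts and 395.52 counts (73.52 TPM). The 528 bases of the Hist2h2aa2 transcript are contained without a difference in the 586 bases of the Hist2h2aa1 transcript. The deposited posterior SD of the count, the spread left by reads that fit several transcripts, was 47.8 and 47.5 in library 2. Reads within the shared stretch cannot be told apart, so the split between the genes is less certain than their sum. Together the pair held 1577.35 counts (330 TPM) in library 2 and none in library 1, where the floor for each gene was 0.515 and 0.440 TPM. Both models end 35 bases past the stem-loop, with no AATAAA or ATTAAA in their last 50 bases.

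Hist3h2a, the H2A gene of the small Hist3 cluster (ENSMUSG00000078851, chr11:58954685-58956830, plus strand), had 199 counts (5.94 TPM) and 307.06 counts (11.69 TPM). Its transcript runs 1643 bases past the stem-loop to the signal atatgcccAATAAAataagagt (chr11:58956797-58956802). It lies wholly within Trim17 on the same strand, a gene with 14 and 81.94 counts, so some reads could belong to either. Hist1h2al, annotated as a pseudogene, had 0 and 3.22 counts (1.23 TPM in library 2). The testis H2A gene Hist1h2aa was among the 14 of 20 H2A genes at 0 counts in both libraries.

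H2B was led by Hist1h2bc (ENSMUSG00000018102, chr13:23684199-23692908, plus strand), with 1158 counts (123.38 TPM) in library 1 and 1387.33 counts (187.82 TPM) in library 2. It was the member with the highest mean TPM and was abundant in both libraries. Its annotated transcript has 2 exons, with a splice site 9 bases after the stop codon, and no stem-loop was found in the spliced sequence. The authors' model of it has 736 bases and the later annotation 1156, so the exact end used for counting is not shown here.

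Hist2h2be (ENSMUSG00000068854, chr3:96221119-96223738, plus strand) had 427 counts (10.26 TPM) and 398 counts (12.21 TPM), whole numbers in both libraries. Its single exon holds 2192 bases after the stop codon, no stem-loop in the window, and the signal ttattattAATAAAgttaccga (chr3:96223717-96223722) 22 bases from its end. Hist1h2be (ENSMUSG00000047246, chr13:23583670-23621124, minus strand) had 255 counts (7.31 TPM) and 178.49 counts (6.44 TPM). By gene entry, these 3 H2B genes were the only ones of their type with over 100 counts in each library. The entry of Hist1h2be sums several transcripts.

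Hist1h2be is annotated with 3 transcripts. The transcript of 1 exon with no annotated stop codon took 61.8% of its TPM in library 1 and 51.5% in library 2. That transcript spans chr13:23618980-23621078, apart from the stem-loop at chr13:23585531-23585546, and had 147.61 and 85.02 counts. A transcript of 2 exons that extends 1861 bases past the stem-loop took 38.2% and 18.6% (107.39 and 36 counts). A near copy of it with another start took 0% and 29.96% (0 and 57.46 counts). Hist1h2be overlaps Hist1h1e over 496 bases on the same strand.

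The remaining H2B genes were low. Hist1h2bq had 40.99 counts (1.29 TPM) in library 1 and 20.05 counts (0.82 TPM) in library 2, and was the only member at 1 TPM or more in library 1 and not in library 2. Its coding sequence is identical to that of Hist1h2br, which had 2.01 and 10.89 counts. The posterior SD of both genes was 9.21 in library 1, above the count of Hist1h2br, so the split between them is uncertain. The counted transcripts of both have 2 or 3 exons and hold no stem-loop in the window. Hist1h2bg, Hist1h2bp and Hist3h2ba had 0 counts in library 1 and 6.80, 8.29 and 9 counts in library 2. For Hist1h2bp all 8.29 counts lay on a spliced transcript with a poly(A) signal, and its transcript with a stem-loop was at 0. The testis H2B gene Hist1h2ba was at 0 counts in both.

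H3 genes were the lowest type in both libraries by the gene entries of the tables. Hist2h3c2 (ENSMUSG00000081058, chr3:96238108-96239127, minus strand) had 20 counts (1.40 TPM) and 39.05 counts (3.49 TPM) and was the only H3 gene at 1 TPM or more. Its coding sequence is 99.8% identical to that of Hist2h3b, and its posterior SD in library 2 was 3.85 counts. The table entry of Hist2h3c1 held 0.01 and 0 counts, for a reason of annotation given below.

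Among H4 genes, Hist1h4h (ENSMUSG00000060981, chr13:23531050-23531519, plus strand) was at 0 counts in library 1, with a floor of 0.613 TPM, and at 78.84 counts (20.35 TPM) in library 2. Its transcript extends 46 bases past the stem-loop and holds the signal attttcttATTAAAagagcgaa (chr13:23531488-23531493). Hist1h4i (ENSMUSG00000060639, chr13:22040636-22041362, minus strand) had 15 counts (1.62 TPM) and 41.61 counts (5.73 TPM). Hist2h4 (ENSMUSG00000091405, chr3:96261682-96263311, minus strand) had 62 counts (2.51 TPM) and 49 counts (2.53 TPM), and its transcript extends 1257 bases past the stem-loop to the signal atacataaAATAAAatcttaaa (chr3:96261709-96261714). The long Hist2h4 transcript was thus level between the libraries in TPM, and the short Hist1h4h transcript was seen in library 2 alone.

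Hist1h4n had 0 and 8 counts (2.42 TPM in library 2), and its coding sequence is identical to that of Hist1h4m, which was at 0 in both. The posterior SD of both genes was 2.13 counts in library 2, so the split between them is uncertain. Hist1h4a had 0 and 9.84 counts (2.07 TPM in library 2). Hist4h4, the only gene of its cluster, had 8 counts (0.17 TPM) and 11 counts (0.30 TPM), on a transcript that runs 2445 bases past the stem-loop.

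Shared reads touched most members that were detected. Of the 37 members with any count, 26 had a fractional count in a library (more than 0.005 from a whole number), 3 of them in library 1 and 25 in library 2. Among protein-coding genes with a count, 10.1% had one. The 11 members with whole counts in both libraries included Hist2h2be, Hist2h4, Hist3h2ba and Hist4h4. A whole count does not show that no reads were shared. Hist1h4n, also among the 11, had 8 counts in library 2 with a posterior SD of 2.13. Coding sequences were identical within 4 pairs of the annotated symbols, Hist1h2ao with Hist1h2ap, Hist1h2bq with Hist1h2br, Hist1h4m with Hist1h4n, and Hist2h2aa1 with Hist2h2aa2.

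Detection moved with the length of the annotated transcript, and this differed between the libraries. The members' models had a median of 481 bases (312 to 2879). The 8 members at 1 TPM or more in both libraries had a median of 1595 bases and none was shorter than 727, against a median of 474.5 for the other members. All 44 members under 600 bases were at 0 counts in library 1, whereas 8 of them (18.2%) reached 1 TPM in library 2. Other protein-coding genes under 600 bases numbered 970, and 33.9% of them were at 1 TPM or more in library 1 and 42.8% in library 2. Of the 10 members of 1000 bases or more, 7 were at 1 TPM or more in library 1 and 6 in library 2, against 63.8% and 73.2% of other protein-coding genes of that length.

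The short members were also rich in GC. Of the 44 short members, 38 had a GC content of 55% or more. Length was that of the authors' models and GC content that of the later annotation, whose transcripts can be longer (Hist1h2ac, 476 and 2482 bases). None of those 38 had a count in library 1 and 14 (36.8%) had one in library 2. Among 241 other protein-coding genes as short and as rich in GC, 45.2% had a count in library 1 and 63.1% in library 2. Of those 241 genes, 30.3% reached 1 TPM in library 1 and 52.3% in library 2, against 0% and 18.4% of the 38 members. The labels give a size range of 350 to 450 without a unit. Whether length, GC content or the absence of a tail accounts for the zeros was not tested.

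The class of transcript end was compared with the level. The annotation gave 71 member transcripts with values, of which 3 end within 20 bases of the stem-loop (Hist1h2ab, Hist1h2ap and Hist1h4m) and all 3 were at 0 counts in both libraries. The 0 of Hist1h4m in library 2 is uncertain, because its coding sequence is shared with Hist1h4n and its posterior mean there was 1.24 TPM. The 40 transcripts that extend further past the stem-loop held 14.5% of the members' TPM in library 1 and 68.4% in library 2. The 9 transcripts with no stem-loop in the window held 82.7% and 30.8%, most of it Hist1h2bc. The 16 transcripts with no or under 60 bases after the stop codon held 0% and 0.0738%. Tailed and untailed RNA were not measured separately, and a read inside the coding region does not show where its transcript ended.

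These shares rest on the annotated ends. Of the 71 transcripts, 49 had the same length in the authors' annotation and in the later one used for sequences. With those alone, transcripts extending past the stem-loop held 55.8% in library 1 and 95.3% in library 2, a restriction chosen after the data were seen that leaves out Hist1h2bc. With a limit of 50 bases in place of 20, the Hist2h2aa1 and Hist2h2aa2 models fall among those ending at the stem-loop, and the share past it in library 2 was 14.9%.

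**Figure D3:**
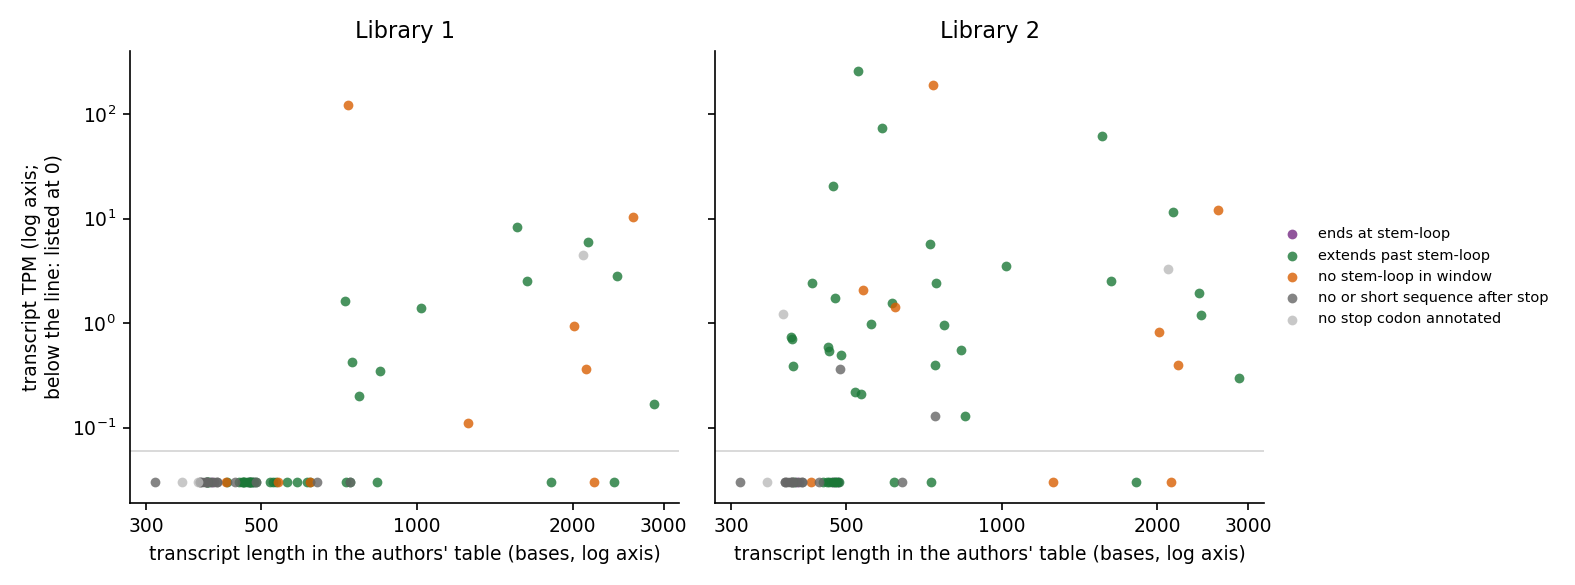
TPM of each of the 71 member transcripts against its length in the authors' tables (both axes log), by library and coloured by where the annotated end lies against the stem-loop; points below the grey line are listed at 0. In library 1 no transcript under 600 bases is above 0, and in library 2 Hist2h2aa2 at 528 bases is the highest at 257 TPM.

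A poly(A) signal, AATAAA or ATTAAA in the last 50 bases of the annotated transcript on its own strand, was found in 13 member transcripts with a stem-loop and 7 without, against 50.2% of 58715 protein-coding transcripts of other genes. Of the 13 with both features, 5 were at 1 TPM or more in library 1 and 8 in library 2. Of the 30 with a stem-loop and no signal, 1 was in library 1 and 6 in library 2. Of the 7 with a signal and no stem-loop, 2 and 4 reached that level, and of the 21 with neither, 1 and 2 did. A match in these windows is a description of the annotation and not a mapped end.

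The libraries were then compared gene by gene, which shows how these 2 libraries differ and not a condition. Counts of library 2 were tested against those of library 1 by a two-sided exact binomial test with TMM scaling and Benjamini-Hochberg adjustment over 18275 genes. The test covers counting error only, and no replicate check exists. At least 10 counts over both libraries were required, which 17 members met and 49 did not. A call needed an adjusted p below 0.05 and at least 2-fold.

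Of the 17 tested members, 7 were higher in library 2 by this rule and 1 was lower, beside 30.1% and 18.4% of all tested genes. Scaled to total counts, 8 members were higher and 0 lower by the same test, as were 6789 and 1176 of all genes in place of 5504 and 3361. With TMM scaling the 7 were Hist2h2aa2, Hist2h2aa1, Hist1h1c, Hist1h4h, Hist1h4i, Hist1h1e and Hist1h4a, and the 1 lower was Hist1h2bq. The median log2 ratio of the tested members was 1.07, and that of all tested genes was 0.02. Against a floor of 3 counts, and with the deposited assignment of reads taken as given, Hist2h2aa2 was at least 301-fold higher in library 2, Hist2h2aa1 at least 101-fold, the pair together at least 402-fold and Hist1h4h at least 20.1-fold. For the pair these are bounds on assigned counts only, because Hist2h2aa1 and Hist2h2aa2 overlap genes that held counts in library 1 (Gm20634, Gm20633 and Gm20632). Among the tested members, 4 had 0 counts in library 1, so their fitted ratios depend on the 0.5 added to each count.

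The log2 ratio of Hist1h1c was 2.15, higher in library 2 (exact 95% limits 1.93 and 2.38; adjusted p = 1.28e-110, exact binomial test). Hist1h4i was higher by 1.07 (0.22 to 2.06; adjusted p = 0.0162, exact binomial test) and Hist1h1e by 1.65 (0.18 to 3.81; adjusted p = 0.0328). Hist1h2bq was lower, at -1.40 (-2.27 to -0.62; adjusted p = 0.000442, exact binomial test), a call that was lost with posterior mean counts (-0.81) and with scaling to total counts (-0.97). The call of Hist1h1e was lost in edgeR's exact test with a dispersion of 0.01.

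The other 6 named members with a mean of 1 TPM or more that were tested stayed under 2-fold. Hist1h2bc had a log2 ratio of -0.13 (-0.24 to -0.01), Hist2h2be of -0.49 (-0.69 to -0.29), Hist1h2be of -0.90 (-1.19 to -0.62), Hist2h4 of -0.72 (-1.30 to -0.16) and Hist3h2a of 0.24 (-0.02 to 0.50). Hist2h3c2 stood at 0.56 (-0.24 to 1.43). The TPM of Hist1h2bc and Hist2h2be was higher in library 2 while the ratio of scaled counts was below 0. Scaling to total counts turned the ratio of Hist1h2bc to 0.31, while that of Hist2h2be stayed below 0 at -0.05. After correction for GC content (described next), both turned, Hist1h2bc to 0.57 and Hist2h2be to 0.33, so neither has a direction that holds under these settings.

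The ratio moved with GC content over all genes tested. The median log2 ratio of all genes went from -1.48 under 40% GC to 4.10 at 60% or more. The GC content of the members had a median of 58.9% (39.8% to 70.5%), against 49.7% for tested genes, while the 17 tested members had a median of 51.2%. With the GC trend removed, 3 members were higher in library 2 (Hist2h2aa2, Hist2h2aa1 and Hist1h4h) and 3 lower (Hist2h4, Hist2h3c2 and Hist1h2bq), beside 9.55% and 8.4% of all genes.

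Hist1h1c fell from 2.15 to 0.50 with the trend removed and was no longer at 2-fold. Hist2h2aa2 stood at 6.61, Hist2h2aa1 at 5.03 and Hist1h4h at 4.14 after removal, values that depend on the 0.5 added to each count. Hist2h3c2, with a GC content of 60.2%, went from 0.56 to -3.15, and Hist2h4 from -0.72 to -1.07. Few genes lie at such GC contents (620 of those tested at 60% or more), so the corrected values of Hist2h3c2, Hist2h2aa1 and Hist2h2aa2 are less certain.

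**Figure D4:**
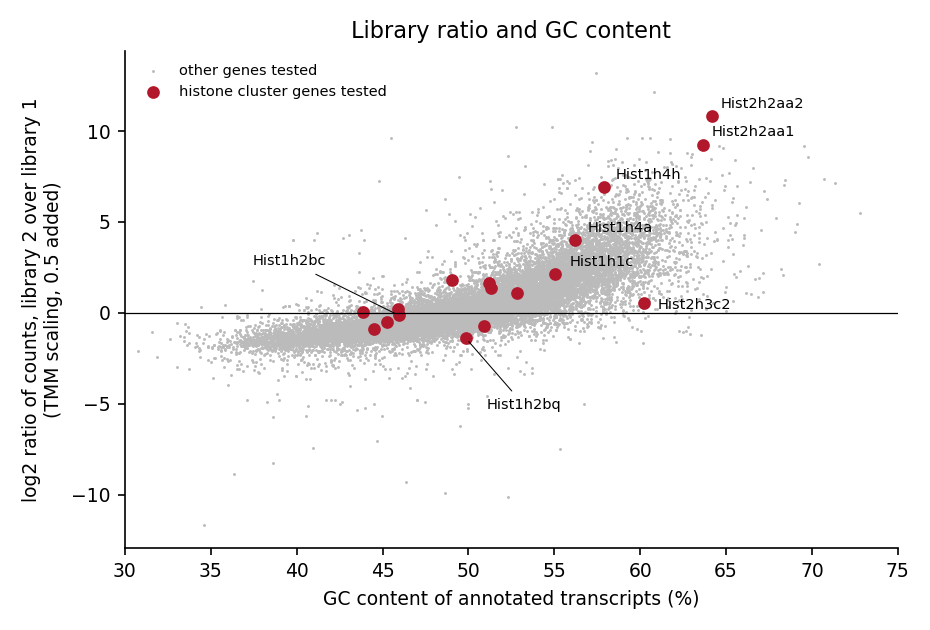
Log2 ratio of counts, library 2 over library 1, against the GC content of the annotated transcripts for the 18147 tested genes with a GC value (grey) and the 17 tested members (red). Hist2h2aa2 and Hist2h2aa1 sit at the upper edge of the cloud at their GC content, Hist1h1c sits within it, and Hist2h3c2 sits at its lower edge.

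The entry of Hist2h3c1 shows how annotation affected a member. Hist2h3c1, Hist2h2aa1 and the non-coding gene Gm20634 overlap on the plus strand of chromosome 3 (Gm20634 at chr3:96245554-96248509, Hist2h3c1 at chr3:96246685-96248509). The transcript of Hist2h3c1 of 1825 bases is held under the identifier of Gm20634 in the authors' tables. It had 579.22 counts (20.67 TPM) in library 1 and 0 in library 2, with a posterior SD of 79.1 in library 1. The Gm20634 transcript of 2956 bases, which spans Hist2h2aa1 and Hist2h3c1, had 6.77 counts in library 1 and 530.32 in library 2.

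Summed over the 3 transcripts that end with Hist2h3c1, the counts were 586 in library 1 and 530.32 in library 2. That sum was near level while its split changed between the libraries. With Hist2h2aa1 added, the 4 overlapping transcripts of the plus strand summed to 586 and 925.84 counts. This transcript carries the stem-loop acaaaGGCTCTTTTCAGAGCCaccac (chr3:96247327-96247342, plus strand), 1167 bases before its end, and the signal ttaatcccAATAAAaatttaac (chr3:96248487-96248492). The Gm20634 transcript also overlaps Hist2h2aa1 over 529 bases, so reads there fit both. The antisense genes Gm20633, over Hist2h2aa1, and Gm20632, over Hist2h2aa2, had 106.5 and 97.08 counts and 80.5 and 91.92 counts. Whether the counting used strand is not given in the sources used here, so whether reads of these genes and of the pair were kept apart is not known.

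**Figure D5:**
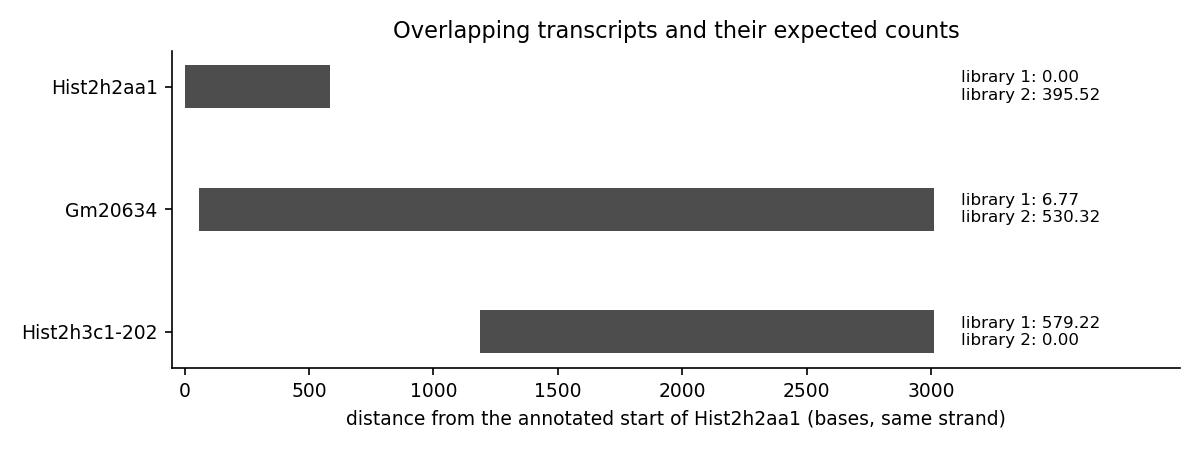
Annotated spans of Hist2h2aa1, Gm20634 and the Hist2h3c1 transcript on the plus strand of chromosome 3, as distance in bases from the start of Hist2h2aa1, with the expected counts in each library. The counts of the shared stretch lie on the Hist2h3c1 transcript in library 1 (579.22) and on the Gm20634 transcript in library 2 (530.32).

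Histone genes outside the clusters, most of which give polyadenylated mRNAs made throughout the cell cycle, had a median level well above that of the members. Of 12 genes listed as replication-independent, 11 reached 1 TPM in each library. The median level of the list was 11.1 TPM in library 1 and 37.9 in library 2, against 0 and 0.215 for the members. The H3.3 gene H3f3a stood at 472 and 709 TPM, the second H3.3 gene H3f3b at 271 and 304 TPM, the H2A.Z gene H2afz at 74.6 and 161 TPM and the linker histone gene H1f0 at 32.1 and 83.1 TPM. H3f3a and H2afz have fractional counts and are uncertain. Of the 12, 6 were called higher in library 2 and 1 lower, and 1 and 2 with the GC trend removed. The shares of all tested genes, for this list and those below, were 30.1% higher and 18.4% lower, and 9.55% and 8.4% with the GC trend removed. H2afx, with the same stem-loop, had 26 counts (1.27 TPM) and 338.56 counts (21.1 TPM) and was named after its values were seen.

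Most of the listed factors that process histone mRNA ends were present. Of 16, 14 reached 1 TPM in each library, and the list median was 7.74 and 21.1 TPM. Those that did not were Lsm11, at 0.76 and 1.56 TPM, and Zfp473, at 0.22 TPM in each library. Both were named after their values were seen. Their highest members were the cap-binding gene Ncbp2 at 32.8 and 47.4 TPM, the cleavage stimulation factor gene Cstf2 at 39.7 and 30.1 TPM, the endonuclease gene Cpsf3 at 28.1 and 37.3 TPM and Srrt, of the cap-binding pathway, at 12.9 and 50.1 TPM. Slbp, which encodes the stem-loop binding protein and was named after its values were seen, stood at 26.4 and 26.7 TPM. Of the 16, 4 were called higher in library 2 and 4 lower, and 2 and 0 with the GC trend removed.

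Genes of S phase and proliferation had lower medians than the replication-independent histone genes. Of 20, 15 reached 1 TPM in each library, and the list median was 2.90 and 4.38 TPM. The replication clamp gene Pcna stood at 61.0 and 55.5 TPM, the helicase genes Mcm7 and Mcm4 at 10.3 and 21.8 TPM and at 6.89 and 8.86 TPM, and the kinase gene Cdk2 at 6.82 and 13.4 TPM. Of the 20, 7 were called higher in library 2 and 3 lower, and 2 and 1 with the GC trend removed. All 12 histone chaperone genes reached 1 TPM in each library, and the list median was 11.4 and 22.7 TPM. They were led by Nap1l1 at 229 and 125 TPM, Hjurp at 28.1 and 62.7 TPM, Atrx at 57.1 and 31.6 TPM and Nap1l4 at 30.5 and 57.8 TPM, with 4 called higher and 4 lower, and 1 and 0 with the GC trend removed.

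Transcripts of spermatids, in which protamines replace histones, were present beside the histone genes. Prm2 stood at 2.94 and 516 TPM, Prm1 at 45 and 257 TPM, Tnp2 at 6.63 and 192 TPM and Tnp1 at 18.2 and 180 TPM. All 7 spermatid chromatin genes were called higher in library 2, and 3 with the GC trend removed, beside 30.1% and 9.55% of all tested genes. Of the members listed beforehand for testis roles, Hist1h1t, Hist1h2aa and Hist1h2ba were at 0 counts in both libraries. Their floors were 0.324 to 0.887 TPM in library 1 and 0.411 to 1.11 TPM in library 2. Hist3h2a and Hist3h2ba, of the same list, had 199 and 307.06 counts and 0 and 9 counts.

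The labelled tissue was checked against markers. All 6 adipocyte markers reached 1 TPM in each library (summed level 6610 and 10371 TPM). So were all 5 epididymis markers (28792 and 34904 TPM), all 8 testis germ cell markers (270 and 1404 TPM), all 5 macrophage markers (220 and 746 TPM) and all 3 endothelial markers (53.2 and 206 TPM). Of 5 erythroid markers 4 were (372 and 4285 TPM), of 4 B cell markers 1 (53.0 and 153 TPM) and of 3 T cell markers 0 (1.44 and 12.5 TPM). The erythroid gene Hba-a1 was at 0 in library 1. In both libraries the epididymis markers had the highest summed TPM, above that of the adipocyte markers of the labelled tissue. The histone values were not assigned to a cell type. The summed TPM of each marker list was higher in library 2, as was that of the members. By TMM-scaled counts, the median log2 ratio was -0.60 for the epididymis markers and 0.10 for the adipocyte markers. For the other marker lists it ran from 0.52 (B cell) to 4.18 (erythroid). The part of these tissues and cell types in the histone values was not tested.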

How the data were processed

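Polyadenylated RNA of 1 biosample was sequenced as 2 technical libraries. The authors deposited expected counts (estimates that need not be whole), TPM and FPKM for genes and transcripts, per the file headers. They also deposited each transcript's percent of its gene's TPM, and the bounds of a TPM interval, a signal whose level is not stated, per the file headers. Assembly mm10 and annotation M4 are named in the deposited text. The column names are those RSEM writes, while aligner and quantifier were not given in the sources used here.

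Symbols, positions and transcript sequences came from GENCODE M21 by identifier without version, matching 42462 of 43346. No genome sequence was used, so the stem-loop was searched in annotated transcripts, and proteins were not used here. Depth was 19954869 and 19256807 counts. Intervals (95% Clopper-Pearson) and floors reflect counting error alone, since the sources describe no molecular identifiers.

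Expected counts were rounded for tests, with 0.5 added to each count in log2 ratios. The GC trend was removed as medians over 40 bins, held constant beyond the outer bins; 128 tested genes without a GC value kept their ratio. The test was also run on simulated counts with counting error alone. These held no GC trend between libraries and no shared reads, so that run does not cover either. Named members are those at 1 TPM or more on average, testis members and Hist4h4, and up to 4 genes with the highest TPM of each other list. The members and lists were chosen with earlier results of these data known. Alternatives covered scaling, filters, detection limits, posterior means, window sizes and each library alone. Python 3.11.15, numpy 2.4.6, scipy 1.17.1, pandas 2.3.3, R 4.3.3, edgeR 4.0.16 and DESeq2 1.42.0 were used.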

Additional observations from a re-analysis of the deposited data

Results flagged for a closer look

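The transcript of Hist2h3c1 that the authors' tables hold under the identifier of Gm20634 stands outside the members' own entries, and it had 579.22 counts in library 1. It is given here because this signal lies in a table entry that the gene-level values of the members do not include, with no control samples to set it against. In library 2 it had 0 counts, and the overlapping Gm20634 transcript had 530.32. With this transcript given to Hist2h3c1, that gene would stand at 20.67 TPM in library 1 and 0 in library 2.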

How the results depend on the processing

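No paired analysis was possible because there is 1 group of 2 technical libraries. Among main values set against an alternative, 23 moved and 101 stayed within the limits used. These limits included 1.5 times for a count of genes, and for a median TPM the SD between the libraries, which is wide. Leaving out either library cannot move a median TPM past that SD. Those checks are among the 101, were bound to stay, and say nothing on how stable the medians are. Members at 1 TPM or more in both libraries (8) became 9 and 18 with either library alone, and their median TPM (0.108 over both libraries) was 0.365 with posterior means. Rescaling without mitochondrial genes moved the S phase median from 3.64 to 5.60 TPM and that of chaperones from 17.0 to 25.3. With the GC trend removed, members called higher went from 7 to 3 and lower from 1 to 3, and all genes from 5504 to 1745 higher and 3361 to 1536 lower. Total-count scaling gave 0 members and 1176 genes lower and 6789 higher, and moved the median ratio of all genes to 0.46. A 1.5-fold limit gave 3 members and 5412 genes lower, and a 4-fold limit 0 members and 337 genes lower and 3398 higher. The members' median log2 ratio (1.07) was 0.40 with posterior mean counts and 0.40 with at least 50 counts. The share of TPM past the stem-loop (14.5% and 68.4%) was 55.8% and 95.3% for transcripts of equal length, and 14.9% in library 2 at 50 bases. The 3 highest members held 76.9% (library 1) and 69.4% (library 2) of counts and 78.8% of posterior mean TPM in library 1. With the GC trend removed, Hist2h3c2 reversed to -3.15, Hist1h2bc to 0.57 and Hist2h2be to 0.33, and total-count scaling reversed Hist1h2bc to 0.31; the cause was not tested. Low counts limit members under 600 bases most.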

Other observations

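The remaining members with a count lay near the limit of detection and were mostly core histone genes of the Hist1 cluster. Among H3 genes, Hist1h3d had 0 counts in library 1 and 5 in library 2, Hist1h3e had 0 and 4.80, and Hist1h3f had 4 and 1.20. Among H4 genes, Hist1h4j had 2 and 7.56 counts, Hist1h4f 0 and 2.03, and Hist1h4d 0 and 2. The H2B gene Hist1h2bf had 0 and 2.18 counts and the H2A gene Hist1h2ad 0 and 2.02. At or under 3 counts a level cannot be told from the floor, so no order among these genes is given.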
